A study of Mus musculus with 48 samples.

Results

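The transcripts of 10 transcription factors that pattern the hypothalamus and the subpallium were followed through RNA sequencing of amygdala punches from female mice. The factors were *Otp*, *Sim1*, *Fezf1*, *Lhx5*, *Lhx1*, *Lhx9*, *Lhx8*, *Nkx2-1*, *Lhx6* and *Nr5a1*, found by symbol through their Ensembl identifiers, and each of the 10 was present among the 52636 genes measured. *Lhx5* and *Fezf1* were selected on their TPM difference between genotypes in fluoxetine-treated mice, so every comparison that uses a fluoxetine library is given as levels, differences and counts only, with no p-value and nothing read from its counts. The mice were 8 to 11 weeks old, of the C57BL/6NTac-Brd1 strain, and carried either both copies of *Brd1* (WT) or a constitutive heterozygous deletion of part of the gene (*Brd1*+/-), which encodes a bromodomain protein of a histone acetyltransferase complex. Mice of each genotype had received vehicle (saline), the tricyclic antidepressant imipramine (IMN, 10 mg/kg) or the serotonin reuptake inhibitor fluoxetine (FLX, 5 mg/kg), which gave 6 groups of 8 libraries. The tissue is amygdala by the sample labels, which were followed here, whereas the series' own design text names other forebrain regions and another sequencer. All 48 mice had been through behavioural testing that ended with a forced swim shortly before tissue was taken. Levels are in TPM, in which reads are divided by transcript length and then scaled to a common library sum.

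These factors are homeodomain, zinc finger, bHLH-PAS and nuclear receptor proteins that assign regional identity to neurons while the forebrain forms, and many stay on in the adult descendants of the cells that used them. *Otp* and *Sim1* are needed for the oxytocin, vasopressin and other neuroendocrine neurons of the paraventricular and supraoptic hypothalamus, *Fezf1* and *Nr5a1* (steroidogenic factor) mark the ventromedial hypothalamus, and *Lhx1*, *Lhx5* and *Lhx9* are LIM-homeodomain factors of hypothalamic and thalamic territories. *Nkx2-1* specifies the medial ganglionic eminence and parts of the hypothalamus, *Lhx6* acts downstream of it in cortical and amygdalar interneurons, and *Lhx8* acts in the cholinergic neurons of the basal forebrain. The medial amygdala, which borders the hypothalamus and the optic tract, itself holds neurons that express *Lhx6*, *Lhx9*, *Lhx5*, *Otp* or *Sim1*. A punch that takes in the medial amygdala, the hypothalamus or the basal forebrain can therefore carry these transcripts, and in bulk tissue fewer cells of a type and less RNA per cell cannot be told apart.

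Promoter sequence is shown for both members of the tightest correlated pair, *Otp* and *Fezf1*, and for *Lhx8* and *Nkx2-1*, the pair that followed a separate course. RefSeq (GRCm38.p6) gave promoters for 8 of the 10 factors, *Lhx5* and *Nr5a1* being the others, and only bases upstream of the GENCODE gene start are printed, 5′ to 3′ on the gene's own strand. Capitals mark a CCAAT box (CCAAT, either strand) or a GC box (GGGCGG, either strand), which here do not overlap each other.
Otp, chr13:94875386-94875601, plus strand: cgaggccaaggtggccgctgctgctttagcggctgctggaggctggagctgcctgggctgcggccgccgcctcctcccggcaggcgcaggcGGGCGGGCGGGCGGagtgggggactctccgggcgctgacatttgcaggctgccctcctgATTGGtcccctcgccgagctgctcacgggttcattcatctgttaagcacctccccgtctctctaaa
Fezf1, chr6:23248363-23248514, minus strand: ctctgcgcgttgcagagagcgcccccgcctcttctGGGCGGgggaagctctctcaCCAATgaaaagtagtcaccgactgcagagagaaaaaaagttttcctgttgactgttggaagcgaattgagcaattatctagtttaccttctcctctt
Lhx8, chr3:154330660-154330810, minus strand: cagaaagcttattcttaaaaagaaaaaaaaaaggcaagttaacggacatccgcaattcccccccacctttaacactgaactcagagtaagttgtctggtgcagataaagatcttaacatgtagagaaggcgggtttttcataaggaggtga
Nkx2-1, chr12:56536909-56537158, minus strand: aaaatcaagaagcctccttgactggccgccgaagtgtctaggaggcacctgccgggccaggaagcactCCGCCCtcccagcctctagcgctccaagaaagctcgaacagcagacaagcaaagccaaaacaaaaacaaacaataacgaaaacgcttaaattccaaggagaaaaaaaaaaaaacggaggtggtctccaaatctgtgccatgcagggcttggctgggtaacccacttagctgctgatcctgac
*Otp* held 1 CCAAT box and 3 overlapping GC boxes and *Fezf1* 1 of each, *Nkx2-1* held 1 GC box, and neither was in the *Lhx8* window. Over 32536 promoters cut to the same lengths, a CCAAT box lay in 30.5% of windows as long as that of *Otp* and 20.3% of those as long as that of *Fezf1*, and a GC box in 28.1% and 17.1%. The homeodomain core TAATTA (its own reverse complement) was in none of the 10 promoter windows of 250 bases that belong to the 8 factors, against 4.84% of all windows. GC content fell from 69.0% in the *Otp* window through 50.8% for *Nkx2-1* and 50% for *Fezf1* to 39.7% for *Lhx8*. These matches describe the printed letters only.

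All 10 genes are protein-coding, and their positions are given on GRCm38. *Otp* lies on chromosome 13 from 94875602 to 94885130 (plus strand), *Sim1* on chromosome 10 from 50894754 to 50989152 (plus), *Fezf1* on chromosome 6 from 23245044 to 23248362 (minus) and *Lhx5* on chromosome 5 from 120431699 to 120441223 (plus). *Lhx1* lies on chromosome 11 from 84518284 to 84525535, *Lhx9* on chromosome 1 from 138825186 to 138848577, *Lhx8* on chromosome 3 from 154306294 to 154330659 and *Nkx2-1* on chromosome 12 from 56531958 to 56536908, all on the minus strand. *Lhx6* (36081953 to 36105408) and *Nr5a1* (38692656 to 38714542) both lie on the minus strand of chromosome 2. Exons of *Lhx5* overlap those of the antisense gene *Gm27199*, and those of *Lhx6* overlap *Gm27953* on the same strand, so both carry some uncertainty, since use of strand in counting is not stated. Between 0 and 2.51% of the 50-base stretches of a factor's transcripts occurred in another gene, and the related *Lhx1* and *Lhx5* shared none.

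*Brd1* checked the genotype label: it stood at 35.6 ± 5.09, 36.9 ± 2.83 and 32.9 ± 4.45 TPM in WT mice with vehicle, IMN and FLX, and at 26.0 ± 2.90, 23.4 ± 4.84 and 23.5 ± 3.49 TPM in *Brd1*+/- mice (SD, n = 8 each). The genotypes did not overlap with IMN (31.9 to 41.0 against 16.6 to 29.5 TPM) but did with vehicle and FLX. The columns summed to between 999524 and 999772 TPM, TPM keeps no depth, and 0 pairs of libraries held identical values. Markers of the amygdala were present but far from even. The summed level of 4 pallial (basolateral) markers ran from 2.39 to 1544 TPM over libraries, that of 6 central amygdala markers from 311 to 1908, that of 6 striatal markers from 59.8 to 3822 and that of 5 choroid plexus markers from 7.39 to 29502. The summed level of 10 hypothalamic neuropeptides ran from 6.81 to 10477 TPM. *Pmch* (melanin-concentrating hormone) was listed at 0 in 22 libraries and reached 5702 TPM, and *Hcrt* (orexin), which is made only in the lateral hypothalamus, was at 0 in 35 and reached 3878 TPM. The punches thus differed widely in these markers, and some of the lists that moved with a comparison are given beside it. Choroid plexus markers had median log2 differences between −0.80 (IMN in WT mice) and 1.82 (genotype in IMN mice, 1 of 4 genes at an unadjusted p under 0.05).

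Ordered by mean level over the 48 libraries, *Lhx6* came first at 24.7 ± 13.2 TPM (SD). It was followed by *Lhx8* at 10.9 ± 13.1, *Nkx2-1* at 6.54 ± 4.87, *Otp* at 6.11 ± 11.3, *Lhx9* at 2.59 ± 2.99, *Lhx5* at 2.34 ± 4.24, *Fezf1* at 2.32 ± 4.23, *Lhx1* at 1.02 ± 2.16, *Sim1* at 0.871 ± 1.84 and *Nr5a1* at 0.0717 ± 0.139 TPM. *Lhx6* stood clearest of its neighbour, being above *Lhx8* in 44 of the 48 libraries. *Nkx2-1* exceeded *Otp* in 35, *Lhx9* exceeded *Lhx5* in 34, *Sim1* exceeded *Nr5a1* in 28 and *Fezf1* exceeded *Lhx1* in 23. *Lhx8* exceeded *Nkx2-1* in 26, *Otp* exceeded *Lhx9* in 23, *Lhx5* exceeded *Fezf1* in 16 and *Lhx1* exceeded *Sim1* in 17 of 48, so the order of these pairs did not hold from library to library. A library with both genes at 0 counts as not exceeding. Of the 32 vehicle and IMN libraries, 13 were such ties for *Lhx5* and *Fezf1* and 12 for *Lhx1* and *Sim1*. *Lhx6* and *Nkx2-1* were above 0 in every library, *Lhx9* was at 0 in 2, *Lhx8* in 6, *Otp* in 16, *Fezf1* and *Sim1* in 20 each, *Lhx5* in 21, *Lhx1* in 25 and *Nr5a1* in 34. A value of 0 says only that the gene is listed at 0, as depth is unknown.

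*Otp*, the homeodomain factor of neuroendocrine neurons, reached the highest single level of the 10 factors, 52.9 TPM. Its lowest, median and highest levels were 0, 0.409 and 6.66 TPM in WT vehicle, 0, 0.714 and 35.4 in WT IMN, and 0, 4.77 and 52.9 in WT FLX libraries. In *Brd1*+/- mice they were 0, 1.07 and 20.1 TPM with vehicle, 0, 5.61 and 29.6 with IMN, and 0, 0.149 and 2.05 with FLX. Every group held at least 1 library at 0, and the *Brd1*+/- FLX group was the one in which no library passed 2.05 TPM. *Sim1*, a bHLH-PAS factor of the same neurons, stood lower, with highest levels of 0.820, 6.26 and 8.60 TPM in WT and 2.68, 2.59 and 0.282 TPM in *Brd1*+/- mice (vehicle, IMN, FLX). WT IMN replicate 4 and WT FLX replicates 1 and 3 held the highest *Sim1* levels, and WT FLX replicate 1 and WT IMN replicate 4 the highest *Otp* levels.

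*Fezf1*, a zinc finger repressor of the ventromedial hypothalamus, ranged from 0 to 6.58 TPM in WT vehicle (median 0.736), from 0 to 10.8 in WT IMN (median 0.407) and from 0 to 20.2 in WT FLX libraries (median 2.65). In *Brd1*+/- mice it ranged from 0 to 6.62 TPM with vehicle (median 0.280), from 0 to 10.3 with IMN (median 0.640) and from 0 to 0.361 with FLX (median 0). *Lhx5*, a LIM factor of the caudal hypothalamus and thalamic border, reached 2.73, 11.8 and 14.6 TPM in WT and 7.30, 11.4 and 0.538 TPM in *Brd1*+/- mice (vehicle, IMN, FLX). Its medians were 0.132, 0.785 and 5.90 TPM in WT and 0.255, 0.247 and 0 TPM in *Brd1*+/- mice. Levels within a group thus spanned from 0 or near 0 to several TPM except in *Brd1*+/- FLX mice, where 6 of 8 libraries were at 0 for *Lhx5* and 5 of 8 for *Fezf1*.

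*Lhx1*, the closest relative of *Lhx5*, had medians of 0, 0.118 and 1.70 TPM in WT and 0.110, 0 and 0 TPM in *Brd1*+/- mice (vehicle, IMN, FLX), with highest levels of 0.564, 5.43 and 10.3 TPM and of 4.12, 4.78 and 0.524 TPM. *Lhx9*, a LIM factor shared by medial amygdala, hypothalamus and thalamus, had medians of 2.28, 0.704 and 4.20 TPM in WT and 1.16, 3.25 and 0.344 TPM in *Brd1*+/- mice, with highest levels of 6.44, 8.71 and 12.1 TPM and of 5.83, 10.4 and 5.08 TPM. *Nr5a1* never reached 1 TPM: its highest level was 0.606 TPM, in WT FLX replicate 3, and no group had more than 4 of 8 libraries above 0. Where *Fezf1* was above 10 TPM, *Nr5a1* was at 0.415 (WT IMN replicate 4), 0 (*Brd1*+/- IMN replicate 7), 0.285 and 0.606 TPM (WT FLX replicates 1 and 3).

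Of the subpallial factors, *Lhx6* and *Nkx2-1* were more evenly spread, being above 0 in every library. *Lhx8* was not, with an SD above its mean over the 48 libraries (10.9 ± 13.1 TPM). *Lhx6* ran from 8.24 to 49.99 TPM in WT vehicle, from 4.82 to 49.0 in WT IMN and from 9.25 to 45.8 in WT FLX libraries, and from 10.5 to 50.5, from 9.80 to 50.1 and from 8.22 to 35.6 TPM in *Brd1*+/- mice, with group medians between 19.9 and 23.2 TPM. *Nkx2-1* had medians of 2.88, 7.23 and 7.33 TPM in WT and 8.94, 4.56 and 4.57 TPM in *Brd1*+/- mice (vehicle, IMN, FLX), over a range of 0.139 to 23.0 TPM. *Lhx8* had medians of 1.49, 11.7 and 11.1 TPM in WT and 11.9, 1.79 and 4.93 TPM in *Brd1*+/- mice. It reached 50.7 TPM in WT IMN replicate 3 and was at 0 in 1 or 2 libraries of every group but WT IMN.

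**Figure D1:**
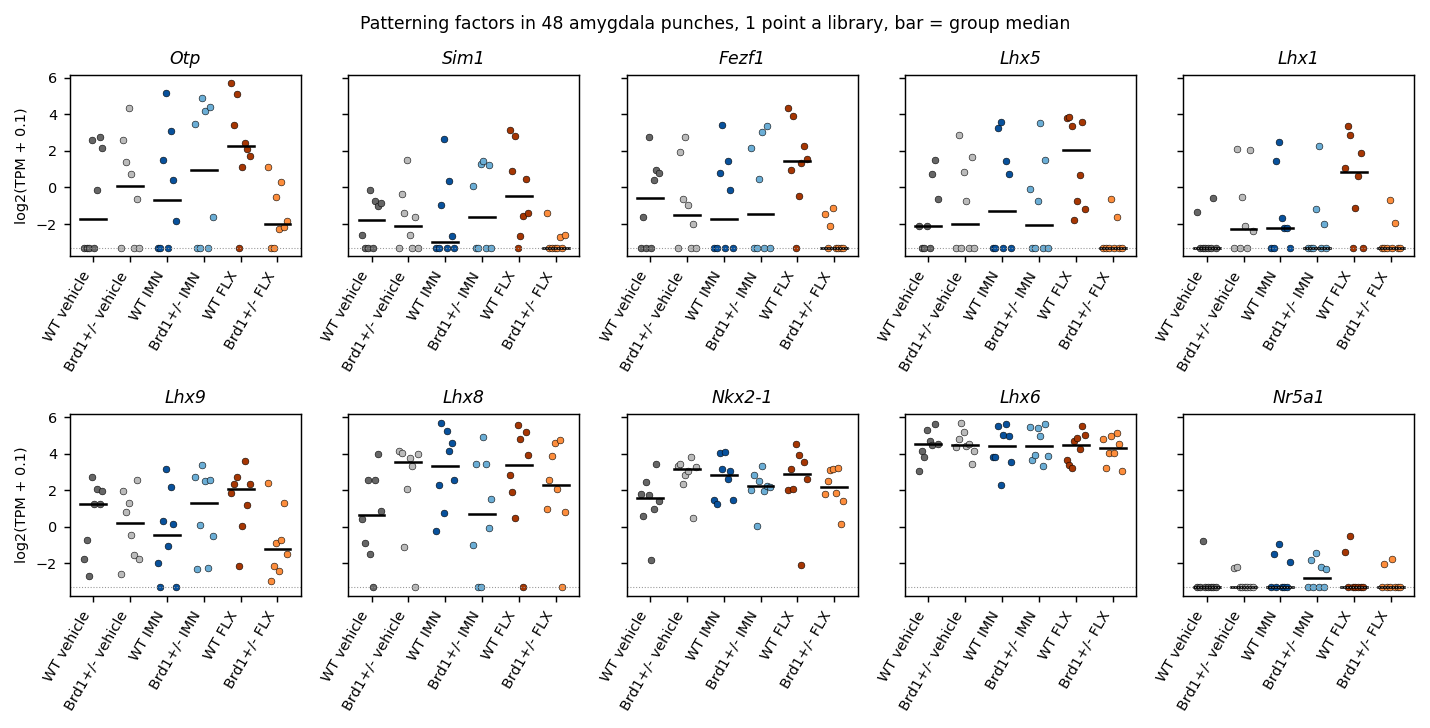
Levels of the 10 factors, as log2(TPM + 0.1) on the vertical axis, by group on the horizontal axis. Each point is a library (8 a group), the bar is the group median and the dotted line marks 0 TPM. *Lhx6* sits between 4.82 and 50.5 TPM throughout, whereas *Otp*, *Sim1*, *Fezf1*, *Lhx5* and *Lhx1* run from the dotted line upwards in most groups and stay low in *Brd1*+/- FLX mice.

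Read library by library, the same punches were high for several factors together. The number of the 10 factors at 1 TPM or more ran from 1 to 9, with 17 libraries at 3 and 6 libraries at 9. The group median was 4, 4.5 and 7.5 factors in WT and 4, 4 and 3 in *Brd1*+/- mice (vehicle, IMN, FLX). The 6 libraries with 9 factors were WT IMN replicate 4, *Brd1*+/- IMN replicate 5 and WT FLX replicates 1, 2, 3 and 7. Among them *Otp* ran from 4.27 to 52.9 TPM, *Lhx6* from 4.82 to 45.8 and *Lhx8* from 1.27 to 36.6. WT IMN replicate 4 had *Otp* at 35.4, *Lhx5* at 11.8, *Fezf1* at 10.8, *Lhx9* at 8.71, *Sim1* at 6.26 and *Lhx1* at 5.43 TPM, while its *Lhx6* level of 4.82 TPM was the lowest of the series. Nearly the full set was thus carried by 4 of the 8 WT FLX libraries, and no *Brd1*+/- FLX library had more than 5 factors at 1 TPM.

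**Figure D2:**
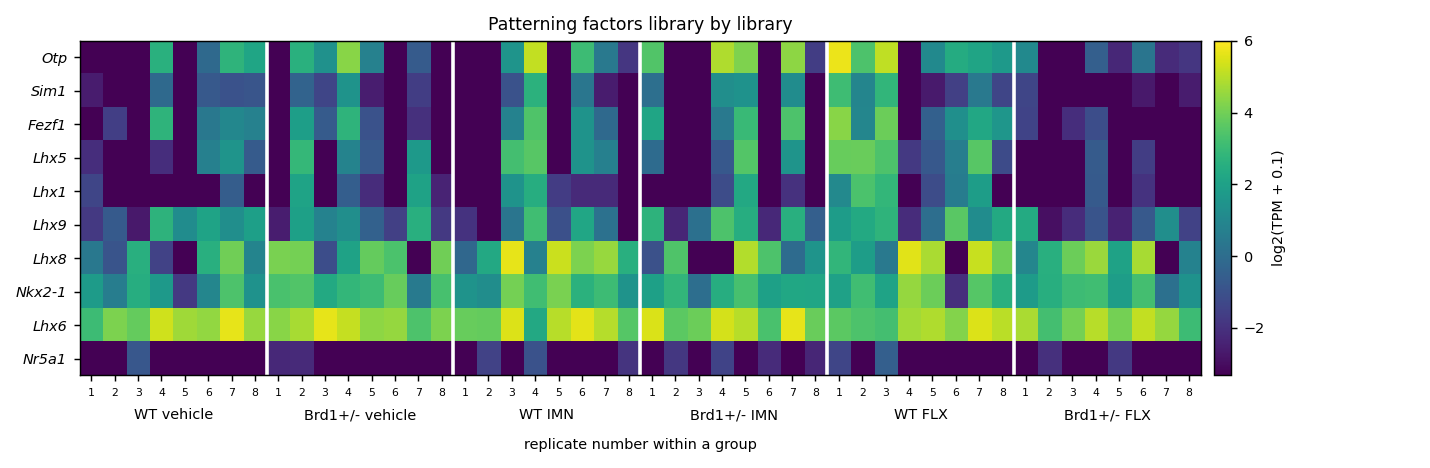
Heat map of log2(TPM + 0.1) for the 10 factors (rows) in the 48 libraries (columns, by group and replicate number). Columns that are bright for *Otp* are mostly bright for *Fezf1*, *Sim1*, *Lhx5* and *Lhx9* too, while *Lhx8* and *Nkx2-1* follow another pattern. WT IMN replicate 4 and WT FLX replicates 1 and 3 are the brightest for *Otp* (35.4, 52.9 and 34.5 TPM).

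To ask whether reduced *Brd1* dosage changed these factors, the genotypes were first compared in vehicle mice. None of the 8 factors that passed the filter on low levels was called by limma at an adjusted p under 0.05, against 0.708% of the 24279 genes tested, and 1 of 8 had an unadjusted p under 0.05, against 8.52% of all genes. That factor was *Nkx2-1*, whose mean was 3.58 ± 3.22 TPM for WT against 8.28 ± 3.90 TPM for *Brd1*+/- vehicle libraries (SD, n = 8). Its log2 difference was 1.504 ± 0.61 (SE, limma adjusted p = 0.482; two-sided exact permutation p = 0.0325), and the groups overlapped, from 0.189 to 10.5 and from 1.29 to 14.1 TPM. *Lhx8* had a difference in the same direction that did not pass, of 1.52 ± 1.21 (SE, limma adjusted p = 0.818). The 8 factors had a median log2 difference of 0.30, with 6 higher and 2 lower, beside 0.03 over all genes. Of 84 marker genes tested, 0 were called by limma and 13 had an unadjusted p under 0.05, all higher in *Brd1*+/- mice, among them 5 of 5 oligodendrocyte markers (median log2 difference 1.53). Thalamus markers (median 0.93) and astrocyte markers (median 0.34) had 2 of 4 each at that level. Cholinergic markers had a median difference of 1.70 (0 of 4 at an unadjusted p under 0.05) and pallial markers one of −1.31 (0 of 4). The part of these tissue markers in the *Nkx2-1* difference was not tested.

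In IMN mice 0 of 8 factors were called and 0 had an unadjusted p under 0.05, against 0.017% and 3.58% of 23581 genes. The median log2 difference of the 8 was −0.16, with 4 higher and 4 lower, beside 0.01 over all genes. The widest was *Lhx8*, at 6.94 ± 10.5 TPM for *Brd1*+/- and 17.9 ± 18.5 TPM for WT (SD, n = 8), which differed on the log2 scale by −2.44 ± 1.24 (SE, limma adjusted p = 1.00; exact permutation p = 0.0923). *Otp* was at 10.0 ± 11.8 against 5.99 ± 12.2 TPM (0.88 ± 1.65, SE, limma adjusted p = 1.00), so the spread between mice exceeded the difference. Cholinergic markers had a median log2 difference of −1.77 here, and 0 of 85 marker genes were called by limma, with 2 at an unadjusted p under 0.05.

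IMN was then compared with vehicle within each genotype. In WT mice 0 of 7 factors were called, and 0% of the 23644 genes tested, while 1 of 7 factors had an unadjusted p under 0.05, against 4.58% of all genes. *Lhx8* had a mean of 3.87 ± 5.32 TPM with vehicle and 17.9 ± 18.5 TPM with IMN (SD, n = 8), which on the log2 scale lay 2.54 ± 1.05 apart (SE, limma adjusted p = 0.970; exact permutation p = 0.0452), and the groups overlapped from 0.761 to 15.7 TPM. *Nkx2-1* differed by 1.32 ± 0.63 (SE, limma adjusted p = 0.970). The 4 cholinergic markers, among them *Chat*, *Slc18a3* and *Slc5a7*, which make acetylcholine or transport it or choline, all had an unadjusted p under 0.05 in the same direction, with a median log2 difference of 2.61. Of 84 marker genes 0 were called by limma, and 7 were higher and 1 lower at an unadjusted p under 0.05. Among the higher were 2 of 6 hypothalamic neuropeptides (median log2 difference 0.82). The part of these markers in the *Lhx8* value was not tested. The median of the 7 factors was 0.53, beside −0.00 over all genes.

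In *Brd1*+/- mice 0 of 8 factors were called between IMN and vehicle, and 0 had an unadjusted p under 0.05, against 0.776% and 9.3% of 24225 genes. Their median log2 difference was 0.27, with 4 higher and 4 lower, beside −0.03 over all genes. *Lhx8* stood at 9.69 ± 7.24 TPM with vehicle and 6.94 ± 10.5 TPM with IMN (SD, n = 8), and the log2 values differed by −1.42 ± 1.37 (SE, limma adjusted p = 0.851). Cholinergic markers had a median difference of −0.98 (0 of 4 at an unadjusted p under 0.05). Of 87 marker genes 0 were called by limma and 14 were lower at an unadjusted p under 0.05, among them 5 of 5 oligodendrocyte markers (median −1.04) and 3 of 4 microglia markers (median −0.38), and their part in the factors' values was not tested. Whether the genotype difference itself differed between vehicle and IMN was tested over the 32 libraries. None of the 10 factors was called, against 0.536% of 26673 genes, and 2 of 10 had an unadjusted p under 0.05, against 9.24%: *Lhx8* (−3.96 ± 1.80, SE, limma adjusted p = 0.506) and *Nkx2-1* (−2.02 ± 0.81, SE, limma adjusted p = 0.437). Cholinergic and oligodendrocyte markers had median interaction values of −3.65 and −1.95, with 2 of 4 and 5 of 5 at an unadjusted p under 0.05 and 0 called by limma.

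In FLX mice, the comparison by which *Lhx5* and *Fezf1* were chosen, both were called by limma, 2 of the 8 factors that passed the filter, and 5 of 8 had an unadjusted p under 0.05. Over all 23635 genes the shares were 1.54% and 16.6%, and nothing is read from the count because of that choice. Neither was called with a pseudocount of 1, the replicate number as a block, the sample code as a covariate or 1 fit of all 48 libraries. A filter at 1 TPM in at least 8 libraries removed both before the fit, so it could not call them. *Lhx5* was at that level in 5 and *Fezf1* in 6 of the FLX libraries. *Lhx5* had a mean of 6.65 ± 6.58 TPM for WT against 0.0950 ± 0.195 TPM for *Brd1*+/-, and *Fezf1* at 5.96 ± 7.45 against 0.0951 ± 0.145 TPM (SD, n = 8 each). The log2 differences were −4.23 for *Lhx5*, −3.99 for *Fezf1*, −3.79 for *Otp*, −3.07 for *Lhx1* and −2.37 for *Lhx9*, and those of *Lhx8*, *Nkx2-1* and *Lhx6* were −0.63, −0.33 and −0.09. *Sim1* and *Nr5a1* did not pass the filter in this comparison, and a factor could pass it through the WT libraries alone. Of the WT FLX libraries, replicates 1, 2, 3 and 7 held *Lhx5* at 14.1, 14.6, 10.3 and 11.7 TPM and the other 4 held between 0.195 and 1.503 TPM. Of these 4, replicates 4, 5 and 8 lay within the *Brd1*+/- range of 0 to 0.538 TPM.

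The same WT FLX libraries differed in their tissue markers. The summed level of the 10 hypothalamic peptides had a median of 124.3 TPM and a highest value of 4625 TPM in WT FLX, against 22.1 and 111 TPM in *Brd1*+/- FLX libraries. *Slc17a6*, the glutamate transporter of subcortical neurons, was at 117, 93.2, 143 and 121.4 TPM in WT FLX replicates 1, 2, 3 and 7. In WT FLX replicates 4, 5, 6 and 8 it was at 4.33, 18.6, 48.7 and 72.5 TPM. The *Brd1*+/- FLX libraries held it at 0.211 to 25.9 TPM. The summed pallial markers had medians of 57.4 TPM for WT and 585 TPM for *Brd1*+/- FLX libraries. Among listed peptides the log2 difference was −5.56 for *Avp* (vasopressin), the lowest, and 0.05 for *Agrp*, the highest. Of 83 marker genes, 0 were called by limma, and 6 were higher and 10 lower at an unadjusted p under 0.05. The part of this difference in tissue in the values of *Lhx5* and *Fezf1* was not tested. With WT FLX replicate 1, 2, 3 or 7, or *Brd1*+/- FLX replicate 3, 5, 7 or 8 left out, 0 factors were called. Without WT FLX replicate 4 there were 4 calls, and without WT FLX replicate 8 there were 3. Nothing is read from these counts, because *Lhx5* and *Fezf1* were chosen by this comparison.

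FLX against vehicle is also given as a description, since it shares its FLX libraries with the comparison above and its vehicle libraries with the IMN comparison. In WT mice 0 of 9 factors were called and 3 of 9 had an unadjusted p under 0.05, where all 23557 genes gave 0.335% and 16.8%. The log2 differences were 3.03 for *Lhx5*, 3.02 for *Otp*, 2.98 for *Lhx1*, 2.16 for *Fezf1*, 2.08 for *Lhx8* and 1.71 for *Sim1*, and the median of the 9 was 2.08, beside 0.05 over all genes. In *Brd1*+/- mice 0 of 6 factors were called and 0 had an unadjusted p under 0.05, where all 24336 genes gave 0.731% and 6.94%. There the median was −0.80, with the lowest values for *Fezf1* (−1.54) and *Otp* (−1.32). The 2 medians cover unlike sets, since *Lhx5*, *Lhx1* and *Sim1* passed the filter in WT mice only. A factor could pass it mainly through the WT FLX libraries. Without the filter the medians of all 10 factors were 1.90 in WT and −1.01 in *Brd1*+/- mice. Oligodendrocyte markers differed by a median of 1.26 in WT mice (5 of 5 at an unadjusted p under 0.05) and −0.81 in *Brd1*+/- mice (0 of 5). Hypothalamic neuropeptides had medians of 1.89 (3 of 6) and −0.95 (1 of 6), and cholinergic markers 2.17 (1 of 4) and −0.21 (0 of 4). For pallial markers the medians were −1.97 (1 of 4) and 0.48 (0 of 4), and *Slc17a6* differed by 1.95 and −0.84. The part of these markers in the factors' values was not tested.

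Which factors rise and fall together was then asked of the 32 vehicle and IMN libraries, after subtracting each group's mean. Of 45 pairs, 20 were called by a two-sided within-group permutation test of Pearson's r (adjusted over the 45 pairs), 19 of them positive, and 21 were called by Spearman's rho. *Otp*, *Sim1* and *Fezf1* formed the tightest set, with r = 0.955 and rho = 0.878 for *Fezf1* and *Otp*, 0.947 and 0.918 for *Sim1* and *Otp*, and 0.937 and 0.916 for *Fezf1* and *Sim1*. *Lhx9* joined them (r = 0.856, rho = 0.816 with *Otp*), as did *Lhx5* (r = 0.810, rho = 0.746 with *Otp*), and *Lhx5* was as close to *Lhx1* (r = 0.825, rho = 0.804). Each of these 6 pairs had a permutation p of 1e-05, the smallest that 100000 permutations can give, and an adjusted p of 3.75e-05 (4.09e-05 for rho). *Lhx8* and *Nkx2-1* formed a second pair (r = 0.737, rho = 0.696, permutation p = 1e-05 each, adjusted p = 3.75e-05 and 4.09e-05), while *Lhx8* and *Otp* had r = −0.04 and rho = −0.14 (permutation p = 0.838 and 0.503, adjusted 0.911 and 0.647). 

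The pairs were also read within each treatment and without extreme libraries. For *Fezf1* and *Otp* r was 0.953 in the 16 vehicle and 0.957 in the 16 IMN libraries, and 0.948 without the 2 libraries farthest from the median of *Fezf1*. For *Lhx5* and *Lhx1* the values were 0.818, 0.831 and 0.765, and for *Lhx8* and *Nkx2-1* they were 0.829, 0.636 and 0.644. *Lhx6* was more loosely tied to *Otp* (r = 0.516, rho = 0.553, permutation p = 0.00578 and 0.00251, adjusted 0.0153 and 0.00627), and its r rose to 0.788 without WT IMN replicate 4 and WT vehicle replicate 1. In the 16 FLX libraries, given without a test, r was 0.845 for *Fezf1* and *Otp*, 0.937 for *Lhx5* and *Lhx1* and 0.918 for *Lhx8* and *Nkx2-1*, but −0.13 for *Lhx6* and *Otp*. *Lhx6* and *Nr5a1* had the one negative call (r = −0.49, rho = −0.52, permutation p = 0.0115 and 0.00457, adjusted 0.0272 and 0.0103), which rests on a gene at 0 in 22 of the 32 libraries.

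Part of these values comes from libraries in which both genes of a pair are at 0, 12 of 32 for *Fezf1* and *Otp*. Among libraries with both above 0, a reading added after the data were seen and given without a test, all 19 positive pairs kept a positive r, with a median of 0.419 and a range of 0.0416 to 0.848. *Sim1* and *Otp* kept r = 0.848 (17 libraries), *Fezf1* and *Otp* 0.785 (17 libraries), *Fezf1* and *Sim1* 0.774 (17 libraries) and *Lhx9* and *Sim1* 0.685 (18 libraries), and *Lhx5* and *Lhx1* kept 0.796 (13 libraries). Between *Lhx5* or *Lhx1* and those 4 factors r ran from 0.134 for *Lhx5* and *Otp* (16 libraries) and 0.148 for *Lhx1* and *Otp* (12 libraries), through 0.395 for *Lhx5* and *Sim1* (17 libraries) and 0.398 for *Lhx1* and *Sim1* (13 libraries), to 0.566 for *Lhx1* and *Lhx9* (15 libraries). The last exceeded the 0.469 of *Fezf1* and *Lhx9* (18 libraries), so the values do not part the factors cleanly. *Lhx8* and *Nkx2-1* kept 0.652 (28 libraries). No difference between these values was tested.

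**Figure D3:**
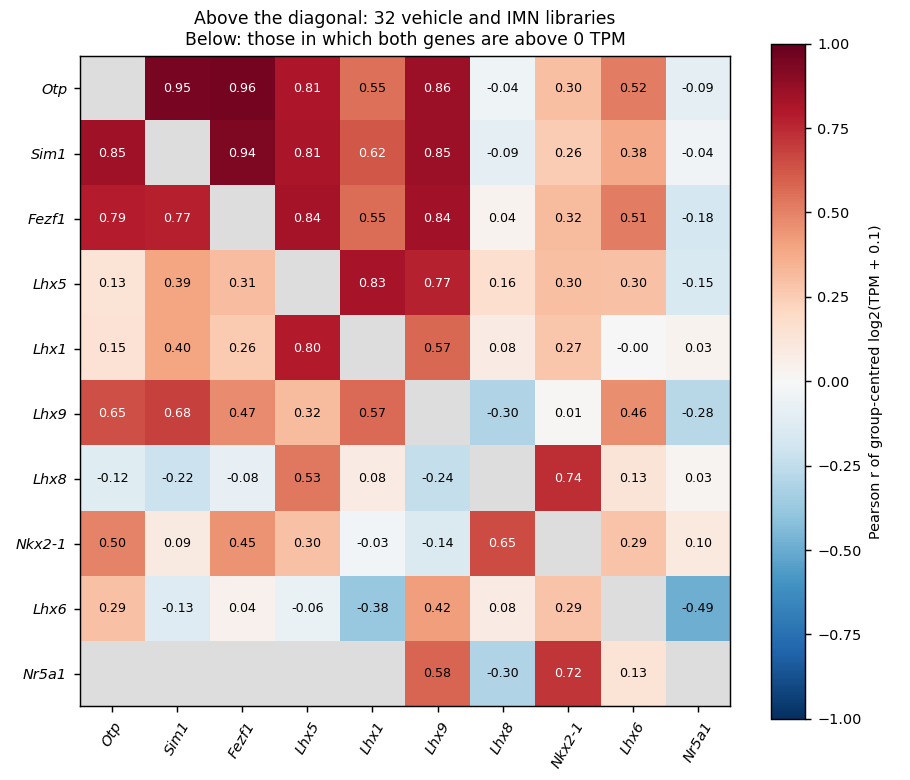
Pearson r of group-centred log2(TPM + 0.1) for every pair of factors, above the diagonal over the 32 vehicle and IMN libraries and below it over those of them in which both genes are above 0 TPM (grey where fewer than 6 libraries remained). Above the diagonal *Otp*, *Sim1*, *Fezf1*, *Lhx5*, *Lhx1* and *Lhx9* form a single block, and below it values are lower, from 0.134 (*Lhx5* and *Otp*) to 0.848 (*Sim1* and *Otp*) among those 6 factors.

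Counted over all 48 libraries, 24 held *Otp* at 1 TPM or more. *Fezf1* reached 1 TPM in 18 of these 24 and in 1 other library, *Lhx9* in 21 and 4 others, and *Sim1* in 10 and 0 others. *Lhx1* reached 1 TPM in 10 libraries, and in each of those *Lhx5* and *Lhx9* did so too. *Lhx8* was split between 18 libraries with *Otp* at 1 TPM or more and 18 without. Each of the 36 libraries with *Lhx8* at 1 TPM or more had *Nkx2-1* at that level. *Nkx2-1* was, however, at that level in 44 of the 48 libraries, among them 8 of the 12 with *Lhx8* under 1 TPM. The 12 libraries with *Lhx8* under 1 TPM held *Chat*, the enzyme that makes acetylcholine, at 0.727 TPM or less, and the other 36 held it at a median of 13.6 TPM.

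Marker lists showed which tissue markers rose with each set of factors. Scores were the mean log2(TPM + 0.1) of a list's genes, and 61 of 160 pairs of a factor and a list were called over the 32 libraries by the same permutation test, adjusted over the 160. The hypothalamic neuropeptides correlated with *Lhx5* (r = 0.860, rho = 0.882), *Sim1* (0.848, 0.868), *Lhx1* (0.844, 0.828), *Otp* (0.796, 0.821), *Lhx9* (0.778, 0.796) and *Fezf1* (0.753, 0.784), with adjusted permutation p-values for r of 8.42e-05 except 0.000152 for *Fezf1*. They did not correlate with *Lhx8* at a level that passed (r = −0.02). The same 6 factors ran opposite to the striatal projection neuron markers, *Lhx9* most (r = −0.87, rho = −0.81, adjusted permutation p = 8.42e-05) and *Lhx1* least (r = −0.46, rho = −0.51, adjusted permutation p = 0.0278). *Lhx6* did so too (r = −0.49, rho = −0.45, adjusted permutation p = 0.0229 for r). With the striatal markers rose *Lhx8* (r = 0.455, adjusted permutation p = 0.0444) and, by r alone, *Nr5a1* (r = 0.462, adjusted permutation p = 0.0297). Steroid receptors and aromatase, which mark the sexually dimorphic nuclei of the medial amygdala and hypothalamus, correlated with *Otp* (r = 0.784, rho = 0.784), *Lhx6* (0.737, 0.766), *Fezf1* (0.733, 0.751), *Lhx9* (0.712, 0.695) and *Sim1* (0.666, 0.698), all called, but not with *Lhx1* (r = 0.0883, rho = 0.247) and with *Lhx5* by rho alone (r = 0.409, rho = 0.411, adjusted permutation p = 0.0588 and 0.0405).

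*Lhx8* followed the cholinergic neuron markers (r = 0.906, rho = 0.908) and the other subpallial transcription factors (r = 0.719, rho = 0.623), each with an adjusted permutation p of 8.42e-05 for r. *Nkx2-1* did likewise (r = 0.695 and rho = 0.738, and r = 0.757 and rho = 0.552). Both ran opposite to the pallial amygdala markers, with r = −0.54 and rho = −0.58 for *Lhx8* (adjusted permutation p = 0.00797 for r) and r = −0.68 and rho = −0.82 for *Nkx2-1* (adjusted permutation p = 0.000800). In the 16 FLX libraries, without a test, *Lhx8* kept r = 0.890 with the cholinergic list and the neuropeptide list had 0.905 with *Sim1*, 0.706 with *Otp* and 0.349 with *Lhx9*. Astrocyte markers also correlated with 7 of the factors, from r = 0.467 for *Lhx6* to 0.758 for *Lhx9*, but in the FLX libraries had 0.0242 with *Lhx9*, −0.17 with *Sim1* and −0.09 with *Fezf1*. Oligodendrocyte markers correlated with *Lhx1* (0.688), *Lhx5* (0.516) and *Nkx2-1* (0.493). Of the other lists, subcortical glutamatergic and GABAergic neurons had 8 correlations called by r, central amygdala neurons 7 (1 of them negative, with *Nr5a1*), hypothalamic transcription factors 6, thalamus 3, choroid plexus 1 (negative, with *Lhx8*), and LIM relatives, microglia and endothelium 0 each (2 of their 30 pairs had an unadjusted permutation p under 0.05). By rho microglia markers were called with *Lhx8* (rho = 0.504, adjusted permutation p = 0.0119). With the 16 vehicle libraries alone 24 of the 160 pairs were called.

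**Figure D4:**
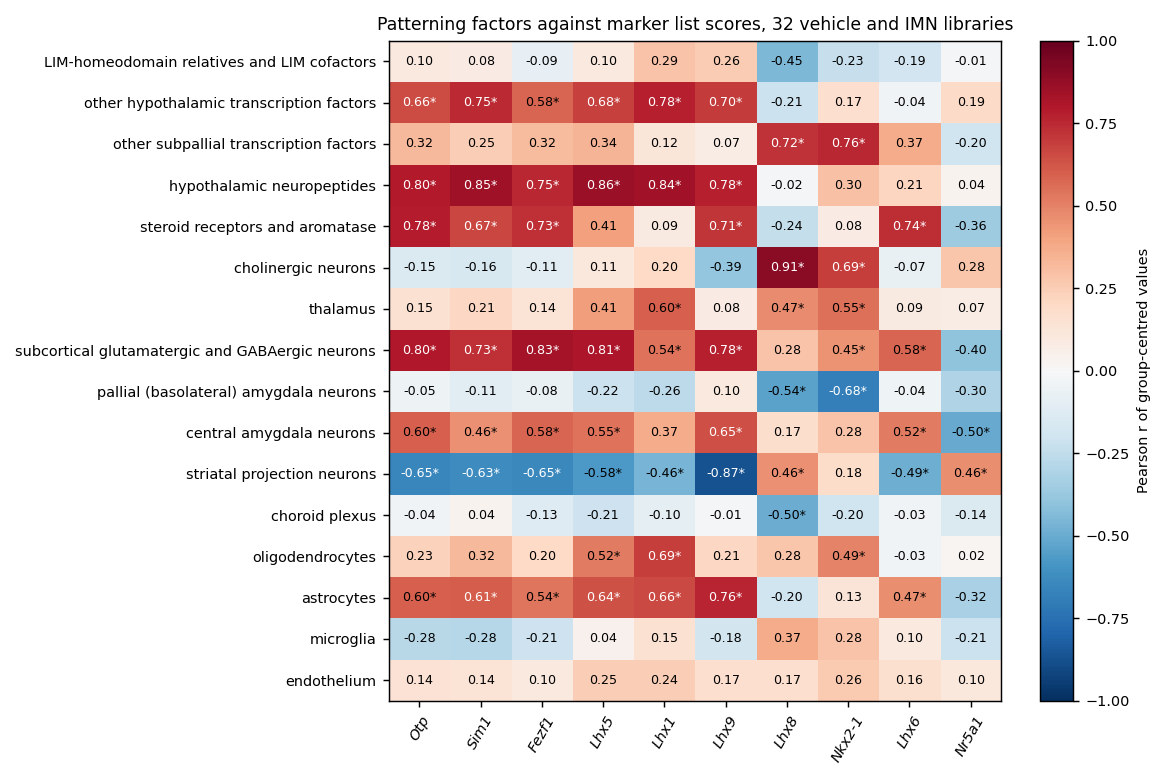
Pearson r of each factor (columns) with 16 marker list scores (rows) over the 32 vehicle and IMN libraries, all values group-centred. An asterisk marks an adjusted permutation p under 0.05. The 6 left columns are high for hypothalamic neuropeptides (0.753 to 0.860) and subcortical neurons (0.544 to 0.832) and low for striatal projection neurons. *Lhx8* is high for cholinergic neurons (0.906).

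Single peptides, chosen after the values were seen, are given beside the hypothalamic factors. Over the 32 libraries *Pmch* had r = 0.892 with *Lhx1*, 0.823 with *Lhx5* and 0.645 with *Otp*. In the 16 FLX libraries the 3 values were 0.670, 0.655 and 0.562. *Oxt* (oxytocin) had r between 0.756 (*Fezf1*) and 0.860 (*Sim1*) with the 6 factors and *Avp* between 0.760 (*Fezf1*) and 0.861 (*Lhx5*). Lower values came with *Hcrt*, from 0.488 (*Lhx9*) to 0.646 (*Lhx1*), and *Trh*, from 0.5565 (*Lhx1*) to 0.666 (*Sim1*). *Esr1* (estrogen receptor alpha) had 0.796 with *Lhx9*, 0.762 with *Otp* and 0.201 with *Lhx1*. These are descriptions over libraries that share their groups. Presence of a factor and of the peptides was not the same thing, however. Of the 24 libraries with *Otp* at 1 TPM or more, 8 held all 4 of *Pmch*, *Hcrt*, *Avp* and *Oxt* at 1 TPM or more and 3 held none, whereas of the other 24 libraries 0 held all 4 and 15 held none. The 3 libraries without these peptides were WT vehicle replicate 4 (*Otp* 5.92, *Fezf1* 6.58, *Lhx9* 6.44, *Lhx5* 0.131 TPM), WT FLX replicate 6 (*Otp* 5.27, *Lhx9* 12.1, *Lhx5* 1.503 TPM) and *Brd1*+/- vehicle replicate 3 (*Otp* 2.50, *Lhx9* 1.68, *Lhx5* 0 TPM). *Brd1*+/- vehicle replicate 7 was the reverse, with *Pmch* at 74.9, *Lhx1* at 4.07 and *Lhx5* at 3.09 but *Otp* at 0.545 TPM.

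**Figure D5:**
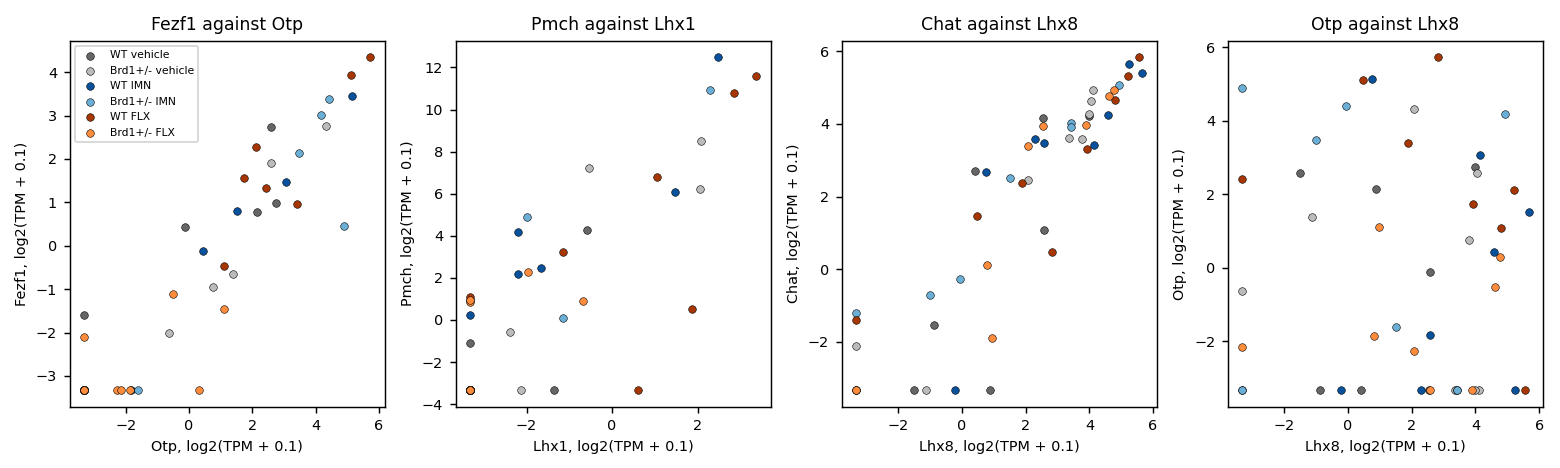
Scatter plots over the 48 libraries, both axes log2(TPM + 0.1), coloured by group: *Fezf1* against *Otp*, *Pmch* against *Lhx1*, *Chat* against *Lhx8* and *Otp* against *Lhx8*. Points at the lowest value of an axis are at 0 TPM. The first 3 plots rise, and in the last *Otp* is at 0 as well as above 10 TPM at both ends of the *Lhx8* axis.

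The genes whose profile over the 32 libraries was closest to each factor, among 14503 protein-coding genes with a mean of at least 0.5 TPM, were taken, up to 2 to a factor. For *Otp* *Pgr15l* is given (r = 0.953), and for *Fezf1* *Cd99l2* (0.936) and *Pgr15l* (0.927). For *Sim1* they were *Gpx3* (0.895) and *Vat1* (0.894), for *Lhx9* *Elac1* (0.943) and *Pcbd1* (0.936), and for *Lhx5* *Adcy7* (0.895) and *Mab21l2* (0.893). *Lhx1* was closest to *Irx2* (0.925), another homeodomain gene, and *Pmch* (0.892). *Lhx8* was closest to the homeodomain gene *Gbx1* (0.920) and to *Slc5a7* (0.918), the choline transporter, *Nkx2-1* to *Unc13c* (0.864) and *Elmo1* (0.817), and *Lhx6* to *Rpp25* (0.840). *Nr5a1*, at 0 in most libraries, reached only 0.711 (*Abcc8*) and 0.709 (*Gpr139*). In the 16 FLX libraries *Gbx1* kept r = 0.945 with *Lhx8*, while *Cd99l2* had 0.598 with *Fezf1*.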

How the data were processed

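Per the study's methods and processing notes, the authors aligned single-end reads to GRCm38 with HISAT2 2.1.0, quantified genes with StringTie 1.3.4 and deposited TPM, 1 column per library. TPM keeps no depth, so no counting interval was computed. Symbols and positions came from GENCODE M21 (52489 of 52636 identifiers found). The members and gene lists were chosen with earlier results of these data known. Values were tested as log2(TPM + 0.1), which understates changes of low genes, with limma 3.58.1 (R 4.3.3, trended prior), separately for each comparison, on genes with TPM of at least 0.1 in at least 8 libraries of the fit. Benjamini-Hochberg adjusted p-values under 0.05 over all genes were called. Single values were compared by exact permutation over 12870 arrangements, and correlations by 100000 permutations within groups (Python 3.11.15, scipy 1.17.1). All tests were two-sided. The named genes were the 10 factors, the 2 closest genes to each (some are not reported here), *Brd1*, and marker genes with the highest or lowest difference. Other markers are named as shown beside a value. Code was tested on simulated data. Alternatives were other pseudocounts, filters, scalings, priors and fits, the replicate number as a block, the sample code as a covariate, and leaving out each library. The 16 marker lists covered LIM relatives, hypothalamic and subpallial factors, neuropeptides, steroid receptors, thalamus, cholinergic, subcortical, pallial, central amygdala and striatal neurons, choroid plexus, oligodendrocytes, astrocytes, microglia and endothelium.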

Additional observations from a re-analysis of the deposited data

Results flagged for a closer look

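A gap test compared the highest and the lowest library of each group of 8 with the next one, for 10 factors in 6 groups. In 17 of 60 combinations (28.3%) the gap, as a share of the group's range, passed Dixon's 95% critical value, where chance gives about 1 in 20, and each time the highest library stood apart. Skewed levels with many values at 0 pass this test easily. The 17 came from 10 libraries.

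WT IMN replicate 4 stood apart for *Otp* (35.4 TPM, next 8.33), *Fezf1* (10.8, next 2.65) and *Sim1* (6.26, next 1.17). *Brd1*+/- IMN replicate 5 did so for *Lhx8* (30.3 TPM, next 10.7), *Lhx5* (11.4, next 2.71) and *Lhx1* (4.78, next 0.348). *Brd1*+/- vehicle replicate 4 was apart for *Otp* (20.1 TPM, next 5.93) and *Sim1* (2.68, next 0.680), and *Brd1*+/- vehicle replicate 2 for *Lhx5* (7.30, next 3.09). In WT vehicle mice, replicate 4 was apart for *Fezf1* (6.58 TPM, next 1.87), replicate 7 for *Lhx8* (15.7, next 5.86) and replicate 3 for *Nr5a1* (0.475, next 0).

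In *Brd1*+/- FLX mice, where these levels were low, replicate 4 was apart for *Lhx5* (0.538 TPM, next 0.222) and *Lhx1* (0.524, next 0.157), and replicate 1 for *Lhx9* (5.08, next 2.33) and *Sim1* (0.282, next 0.0633). WT FLX replicate 3 was apart for *Nr5a1* (0.606 TPM, next 0.285).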

How the results depend on the processing

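Between genotypes in FLX mice 2 factors were called, *Lhx5* and *Fezf1*. With a pseudocount of 1, in 1 fit of all 48 libraries, with the sample code as a covariate and with the replicate number as a block, 0 were called. A filter at 1 TPM also gave 0, but it left both out of the fit and could not call them. Leaving out each library gave 0 to 4, and the cause was not tested. Nothing is read from these counts, because *Lhx5* and *Fezf1* were chosen by this comparison. For genotype in vehicle mice and for IMN against vehicle in WT mice the exact permutation test, which is unadjusted, gave 1 factor, as limma's unadjusted p did, beside 0 after adjustment. The number of called pairs of a factor and a list fell from 61 to 24 with the 16 vehicle libraries alone, which are fewer samples. Across all genes the number called between genotypes was 172 in vehicle mice, 24 with a filter at 1 TPM and, at most, 401 higher and 7 lower in 1 fit of all libraries. It ran from 0 to 398 in FLX mice, from 23 to 439 for IMN and 24 to 415 for FLX in *Brd1*+/- mice, from 0 to 128 for FLX in WT mice and from 15 to 212 in the interaction. Leaving out single libraries widened this to 490 between genotypes in FLX mice (without *Brd1*+/- FLX replicate 6; 70 without WT FLX replicate 7) and to 956 for FLX in WT mice (without WT vehicle replicate 1; 1 without WT FLX replicate 7). In vehicle mice it gave 80 (without *Brd1*+/- vehicle replicate 4) to 349 (without WT vehicle replicate 1).

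Differences near 0 changed sign: *Sim1* between genotypes in vehicle mice with quantile normalization (−0.12), *Fezf1* for IMN in WT mice with a pseudocount of 1 (0.049), *Lhx6* for IMN in *Brd1*+/- mice with quantile normalization (0.0031) and *Otp* in the interaction with a pseudocount of 0.01 (−0.037). *Lhx6* and *Nr5a1* had r = 0.134 among libraries with both above 0.

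With single libraries left out, the log2 difference between genotypes in vehicle mice ran from −0.064 to 0.94 for *Lhx5*, −0.84 to 0.22 for *Fezf1*, −0.10 to 0.27 for *Lhx6*, −0.10 to 0.32 for *Sim1* and −0.10 to 1.05 for *Otp*, and in IMN mice from −0.080 to 0.39 for *Lhx6*. For IMN against vehicle it ran in WT mice from −0.76 to 0.38 for *Fezf1*, −0.34 to 0.15 for *Lhx6* and −0.23 to 1.03 for *Otp*, and in *Brd1*+/- mice from −0.39 to 0.25 for *Lhx5* and −0.20 to 0.14 for *Lhx6*. The interaction ran from −0.18 to 0.31 for *Lhx6*, −0.27 to 1.10 for *Otp* and −0.29 to 0.27 for *Nr5a1*.

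The replicate numbers did not pair the samples: in 0 of 7 compared pairs of groups did all same-numbered libraries correlate above 0.1 in their deviations, 5 of 48 libraries were closest to one of their own number, and the block changed no other count of called factors. The sample codes of vehicle and drug mice fall in separate ranges, so drug and code range cannot be told apart.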
